A study of Mus musculus with 6 samples.

Results

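The ATF4 response and amino acid supply set comprises 36 genes, picked by symbol from the deposited counts. They are the kinases that act on translation initiation factor eIF2, an eIF2 subunit, the subunits that direct eIF2 dephosphorylation, ATF4 with its partner factors and stress targets, and the enzymes and transporters that make or import amino acids. All 36 symbols were among the 15528 listed, and 34 had enough counts to be tested. Mouse cells that the labels call lymphatic endothelial were sequenced in 2 groups of 3 libraries at 24 h: cells treated with red blood cells (RBC libraries 1 to 3) and control cells (control libraries 1 to 3). The labels give no strain, age, cell number, dose of red blood cells or source of the cells, and do not say whether the replicates were separate cultures. The p-values therefore rest on differences among libraries alone, and part of that spread may be technical. The series title sets the cells in work on bleeding beneath the arachnoid membrane. For this set the comparison asks whether transcripts of the stress response and of amino acid supply differ once red blood cells are present.

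When amino acids run short, unfolded proteins build up, or heme is lacking, one of several kinases phosphorylates eIF2. General protein synthesis then slows while translation of the Atf4 mRNA is favoured, and the ATF4 protein, paired with C/EBP factors, switches on genes that make amino acids, carry them into the cell and charge tRNAs. If the stress persists, the same factor induces genes that restrain growth or promote cell death. ATF4 is set largely by translation, so its mRNA level is not a measure of its protein, and neither eIF2 phosphorylation nor protein was measured here. Eif2ak1 encodes the heme-regulated kinase, which heme keeps inactive in red cell precursors.

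The C/EBP-ATF composite motif, to which ATF4 binds with its partners, was searched for in the promoters of the set, and the sites found are shown because they mark the members with the element close to their start. RefSeq promoter windows of GRCm38.p6 (250 bases before to 50 after each start) were available by symbol for 31 members and were searched on both strands for TGATGNAA and its reverse complement TTNCATCA, where N is any base. A match was present in 7 of the 31 members (22.6%), against 377 of 12165 listed symbols with a window (3.10%). Each site is given as 30 bases, 5′ to 3′ on the strand of the gene, with the match in capitals.
Asns: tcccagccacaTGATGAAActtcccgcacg
Chac1: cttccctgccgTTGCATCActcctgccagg
Nupr1: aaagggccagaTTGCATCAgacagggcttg
Pycr1: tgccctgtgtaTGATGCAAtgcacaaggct
Slc1a4: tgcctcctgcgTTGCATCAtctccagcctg
Trib3: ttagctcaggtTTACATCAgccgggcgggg
Vldlr: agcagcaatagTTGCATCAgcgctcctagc
In GRCm38.p6 these stretches lie at chr6:7693214-7693243 (Asns, minus strand), chr2:119351038-119351067 (Chac1, plus), chr7:126625562-126625591 (Nupr1, minus), chr11:120643833-120643862 (Pycr1, minus), chr11:20332699-20332728 (Slc1a4, minus), chr2:152344028-152344057 (Trib3, minus) and chr19:27216809-27216838 (Vldlr, plus). The match begins 23 bases before the start of Asns and 103 before that of Pycr1, spans the start of Slc1a4, and begins at base 15 of the Trib3 transcript. Asns and Pycr1 hold the motif in the forward direction and the other 5 in the reverse one. A match describes the letters of a window and is not evidence of binding, and a member without one may hold the element elsewhere.

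Total counts were 18000112, 18327247 and 18009450 in RBC libraries 1 to 3, against 17263359, 18381419 and 17841554 in control libraries 1 to 3. Control 2 stood apart from all others: its chi-square per gene against controls 1 and 3 was 27.09 and 25.7, while controls 1 and 3 differed from each other by 1.96. Within the RBC group the value ranged from 1.70 to 2.08, and between RBC libraries and controls 1 and 3 from 5.38 to 6.16. Values without control 2 are therefore given beside those members and counts that the results turn on. Markers of the labelled cell type were mixed: Prox1, Lyve1 and Ccl21a were not listed, and Pdpn and Cdh5, a junction protein of endothelium, had 2 and 11 counts over the RBC libraries, against 6 and 7 over the controls. Transcripts of red blood cell markers summed to between 538 and 623 CPM (counts scaled to the library total) in the RBC libraries, against 2.94 to 3.64 CPM in the controls; all 10 of 10 markers were listed, and Slc4a1 and Epb42 had 2 counts each over the RBC libraries, against 0 in the controls. Leukocyte markers, 8 of 10 listed, summed to 48.7 to 53.5 CPM in the RBC libraries, against 42.1 to 48.6 CPM in the controls. Csf1r and Cd68 made up most of that sum in both groups, whereas Ptprc had 36 counts over the RBC libraries, against 0 over the controls, Cd74 67 against 0, Lyz2 83 against 14 and Itgam 28 against 4. The 5 of 8 lymphatic endothelial markers listed summed to 562 to 594 CPM in the RBC libraries, against 399.5 to 503 CPM in the controls. Most of that came from Nrp2 (361 CPM in RBC libraries and 272 CPM in controls), Nr2f2 (146 CPM in RBC libraries and 161 CPM in controls) and Stab1 (63.5 CPM in RBC libraries and 30.9 CPM in controls). Pan-endothelial markers, 6 of 7 listed, summed to 111.9 to 114.2 CPM in the RBC libraries, against 106.8 to 118.8 CPM in the controls, mostly from Eng and Pecam1. Fibroblast and mural markers, 7 of 7 listed, gave 451 to 469 CPM, against 442 to 492 CPM in the controls. Col1a2 made up most of that sum (448 CPM in RBC libraries and 464 CPM in controls), whereas Col1a1 had 4 counts over the RBC libraries, against 6 over the controls. Epithelial and mesothelial markers, 6 of 7 listed, gave 602 to 623 CPM, against 645 to 722 CPM in the controls, mostly from Krt8 and Msln. Platelet markers, 3 of 4 listed, stayed under 2 CPM in each library. The part of RNA from other cells in the members' values was not tested. In bulk RNA, fewer cells of a type and less RNA per cell cannot be told apart.

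No member of the set passed the test between RBC and control libraries. With edgeR's quasi-likelihood test and Benjamini-Hochberg adjustment over 11208 genes, 0 of 34 tested members had an adjusted p under 0.05, against 1.46% of all tested genes (164 genes: 1.16% higher and 0.303% lower with red blood cells). DESeq2 also called 0 of 34 members, against 2.11% of all genes. At an unadjusted p under 0.05, edgeR gave 5 of 34 members (14.7%), where 9.99% of all tested genes met that limit. Of the 5, Trib3, Pycr1, Gpt2 and Slc6a9 were higher (11.8% of members, against 5.42% of all genes) and Slc1a4 was lower (2.94%, against 4.58%). Log2 fold changes were positive in 21 of 34 members (61.8%), against 49.0% of all genes. The median log2 fold change was 0.030 over the members and -0.0027 over all tested genes, and the members ran from -0.17 (Slc1a4) to 0.26 (Pycr1). The 6 tested members with the promoter motif had a median of -0.0053, and the 24 with a window but no match had 0.031. Summed over all 36 genes, the set held 5568 ± 36.6 CPM in the RBC libraries and 5526 ± 61.2 CPM in the controls (SD, n = 3 each).

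**Figure D1:**
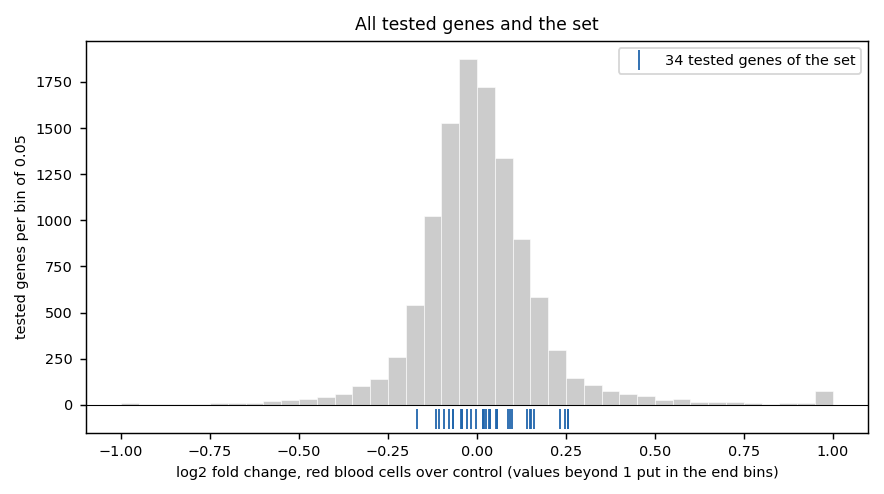
Histogram of the edgeR log2 fold change (red blood cells over control) of all tested genes in bins of 0.05, with values beyond 1 placed in the end bins, and blue ticks for the 34 tested genes of the set. The ticks lie between -0.17 and 0.26.

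The groups did not overlap in CPM in 9 of 34 members (26.5%), against 19.6% of all tested genes, 8 of them higher in RBC libraries (23.5%) and 1 lower (2.94%). The same held for 10.4% of all tested genes in the higher direction and 9.19% in the lower. The 8 were Trib3, Sesn2, Pycr1, Gpt2, Slc7a5, Slc7a1, Slc1a5 and Slc6a9, and the lower one was Slc1a4. Control 2 was the highest of the 6 libraries in 14 members and the lowest in 11. This was counted over the members only, so whether it is particular to the set was not tested.

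**Figure D2:**
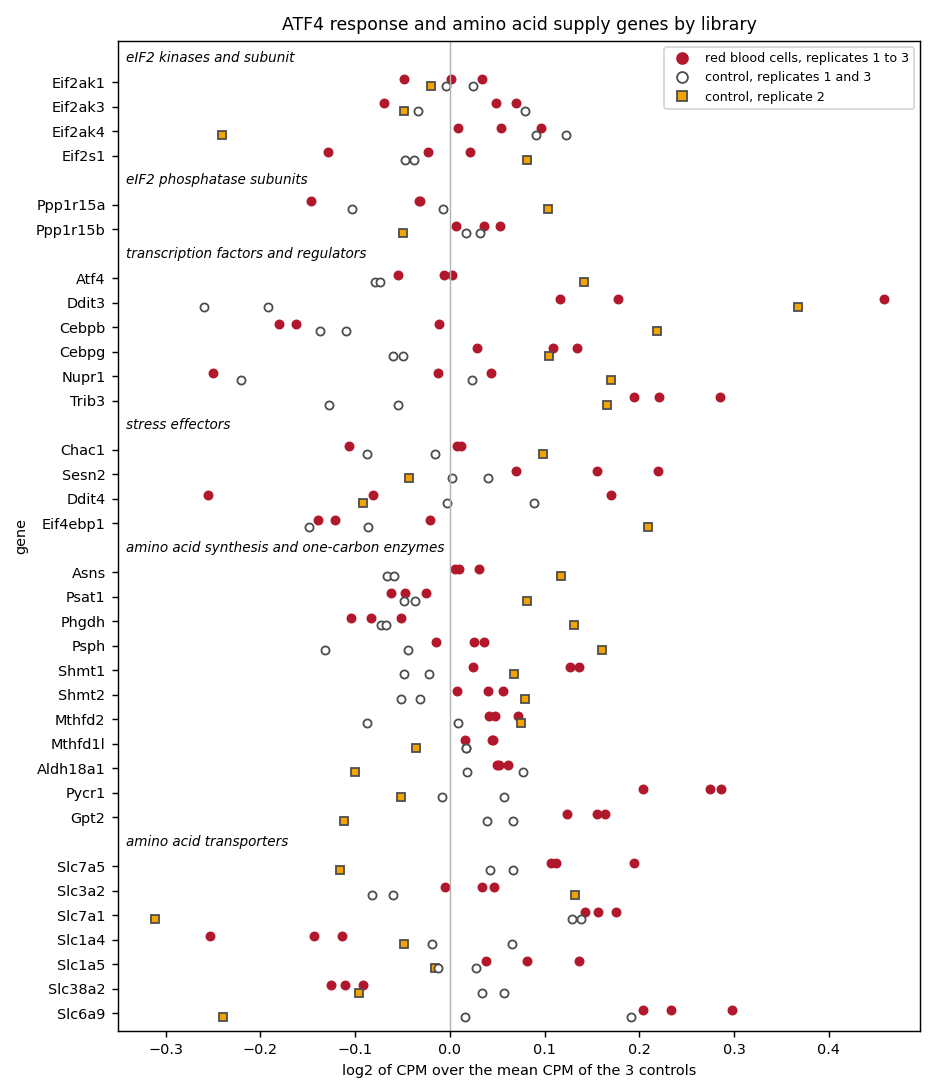
Each row is a tested gene of the set, grouped by role; the horizontal axis is the log2 of a library's CPM over the mean of the 3 controls, with filled red points for RBC libraries, open points for controls 1 and 3 and an orange square for control 2. Control 2 is the highest library in 14 genes and the lowest in 11, and the RBC points lie to the right of every control in 8.

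On a scale corrected for length (FPKM, which divides counts by gene length and library size), the set held some of the most abundant transcripts of these cells. Phgdh, the first enzyme of serine synthesis, had 360 ± 6.64 FPKM in RBC libraries and 380 ± 31.2 FPKM in controls (SD, n = 3 each), at or above 99.2% of listed symbols over the 6 libraries. Atf4 came second, with 229.5 ± 4.91 FPKM in RBC libraries and 232.6 ± 20.8 FPKM in controls, followed by the translation repressor Eif4ebp1 with 189.9 ± 8.44 FPKM in RBC libraries and 202.5 ± 27.7 FPKM in controls. The amino acid transporters Slc7a5 and Slc38a2 and asparagine synthetase Asns came next, with RBC means between 124 and 162 FPKM and control means between 134 and 147 FPKM. At the low end were Ddit3, with 2.34 ± 0.31 FPKM in RBC libraries and 1.96 ± 0.49 FPKM in controls, and the 2 members too low to test. Cth, cystathionine gamma-lyase, which makes cysteine, had 22 counts over the RBC libraries, against 18 over the controls. Vldlr, a lipoprotein receptor that ATF4 can induce, had 9 counts in each group.

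**Figure D3:**
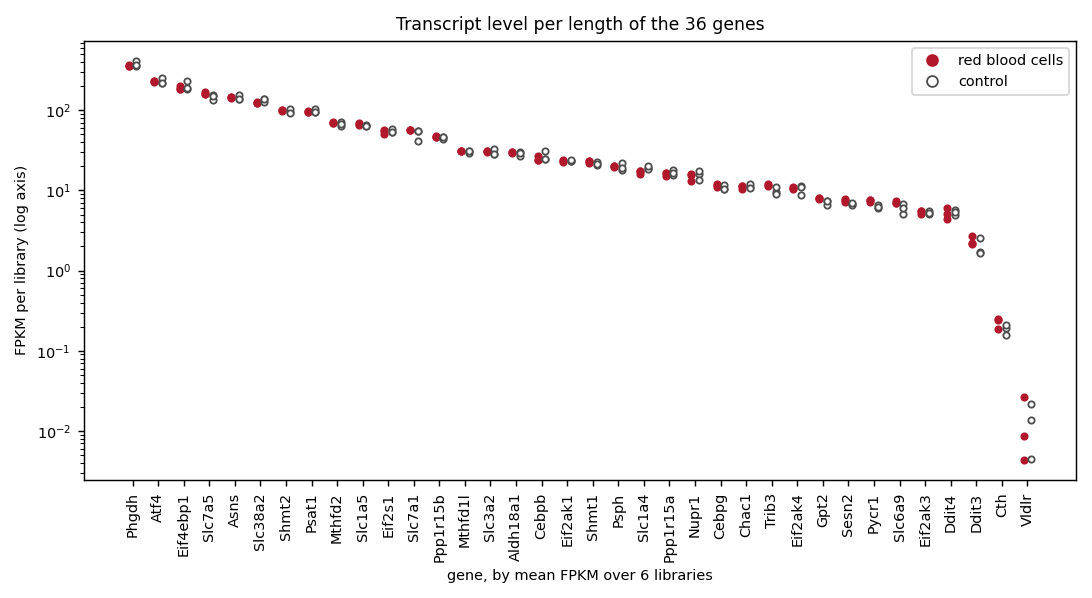
FPKM of each library (log axis) for the 36 genes in order of their mean; red points are RBC libraries and open points controls. Phgdh, Atf4 and Eif4ebp1 lead, Cth and Vldlr stand at the low end, and the groups lie close together in each gene.

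The eIF2 kinases did not pass the test, and their libraries overlapped. Eif2ak1, the heme-regulated kinase, had 63.6, 67.3 and 65.8 CPM in RBC libraries, against 65.6, 64.8 and 66.9 CPM in controls. All 6 libraries lay within a narrow band, control 2 included. Its log2 fold change was -0.0026 ± 0.055 SE, with a 95% interval from -0.13 to 0.12 (edgeR adjusted p = 0.989), and it was -0.014 without control 2. Eif2ak1 is known to be expressed in red cell precursors, and erythroid transcripts differed between these libraries as given above; a difference in Eif2ak1 was not detectable. Exons of Aimp2 overlap Eif2ak1 on the opposite strand in GENCODE vM21, and the strand setting of the counting is not given in the sources used here, so reads of the pair may not be told apart. The same holds for Cebpb with Tmem189, Shmt1 with Smcr8, Psph with Cct6a and Slc6a9 with B4galt2. Eif2ak3, the kinase of the endoplasmic reticulum known as PERK, had 26.1 ± 1.34 CPM in RBC libraries and 25.8 ± 1.27 CPM in controls (SD, n = 3 each). Eif2ak4, the GCN2 kinase that senses uncharged tRNA, had 60.6, 58.7 and 62.4 CPM in RBC libraries, against 63.5, 49.4 and 62.2 CPM in controls, so that control 2 alone was low. Its log2 fold change of 0.056 became -0.053 without that library. Their common target Eif2s1, the phosphorylated alpha subunit, had 169.6 ± 8.95 CPM in RBC libraries and 174.6 ± 8.82 CPM in controls. The subunits that guide the phosphatase back to eIF2 did not pass either: the inducible Ppp1r15a had 37.3 ± 1.69 CPM in RBC libraries and 39.1 ± 2.81 CPM in controls, and the constitutive Ppp1r15b 260.7 ± 4.23 CPM in RBC libraries and 254.9 ± 7.62 CPM in controls.

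Atf4 mRNA did not pass the test. It had 335, 337 and 324 CPM in RBC libraries, against 318, 371 and 320 CPM in controls. The RBC libraries lay between controls 1 and 3 on one side and control 2 on the other. The log2 fold change was -0.018 ± 0.070 SE with all 6 libraries, with an interval of 0.884-fold to 1.10-fold, and 0.057 ± 0.032 SE without control 2 (edgeR adjusted p = 0.933 and 0.343, over the alternatives 0.343 to 1).

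Among the factors downstream of ATF4, Trib3 and Ddit3 were called only when control 2 was left out or, for Trib3, given a low weight. Trib3 encodes a pseudokinase that restrains ATF4 and AKT signalling. It had 23.8, 23.4 and 24.9 CPM in RBC libraries, against 19.7, 22.96 and 18.7 CPM in controls. The RBC libraries were above every control, with control 2 the closest. With 6 libraries its log2 fold change was 0.23 ± 0.088 SE (edgeR adjusted p = 0.399). It was 0.33 ± 0.074 SE without control 2 and then passed (adjusted p = 0.00154, over the alternatives 0.00154 to 0.911). Ddit3, the pro-apoptotic factor CHOP, had 97, 120 and 93 counts in RBC libraries, against 72, 113 and 71 counts in controls. Control 2 lay among the RBC libraries. The log2 fold change was 0.26 ± 0.18 SE (adjusted p = 0.656), and without control 2 it was 0.49 ± 0.16 SE (adjusted p = 0.0385, over the alternatives 0.0385 to 0.911). Exons of Mars1, the methionyl-tRNA synthetase gene with a median of 3731 counts, overlap Ddit3 on the opposite strand in GENCODE vM21, so its few counts are uncertain.

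The other factors showed no call in either fit. Cebpg, a C/EBP partner of ATF4, had 54.6 ± 2.07 CPM in RBC libraries and 51.3 ± 3.34 CPM in controls (log2 fold change 0.092; 0.15 without control 2). Cebpb, which also pairs with ATF4, had 37.6 ± 2.47 CPM in RBC libraries and 40.8 ± 5.80 CPM in controls. The stress-induced chromatin protein Nupr1 had 9.41 ± 0.99 CPM in RBC libraries and 9.86 ± 1.32 CPM in controls. In Cebpb control 2 held 127% of the mean of controls 1 and 3, and without it the log2 fold change was 0.0070 in place of -0.12.

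Of the 4 tested stress effectors, 0 were called with or without control 2. Sesn2, a leucine sensor that inhibits mTORC1, had 20.9, 19.97 and 18.8 CPM in RBC libraries, against 17.96, 17.4 and 18.4 CPM in controls. The groups did not overlap, and the log2 fold change of 0.15 ± 0.073 SE did not pass (edgeR adjusted p = 0.551). Chac1, which degrades glutathione and carries the motif shown above, had 17.4 ± 0.79 CPM in RBC libraries and 17.7 ± 1.16 CPM in controls. Ddit4, another inhibitor of mTORC1, had 8.71 ± 1.30 CPM in RBC libraries and 8.99 ± 0.56 CPM in controls. Eif4ebp1, which holds back cap-dependent translation, had 195.8, 182.7 and 180.5 CPM in RBC libraries, against 179.2, 229.7 and 187.1 CPM in controls. Its spread in the controls came from control 2.

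Of the enzymes of amino acid synthesis and one-carbon metabolism, 0 of 11 tested members were called, with 9 positive and 2 negative log2 fold changes and a median of 0.037. Asns had 342, 347 and 341 CPM in RBC libraries, against 325, 369 and 327 CPM in controls, so the RBC libraries lay above controls 1 and 3 and below control 2. The log2 fold change of Asns was 0.016 ± 0.063 SE, with an interval of 0.915-fold to 1.12-fold. It was 0.078 ± 0.032 SE without control 2 and did not pass there either (edgeR adjusted p = 0.140). Along the serine pathway, Phgdh had 687, 662 and 671 CPM in RBC libraries, against 677, 779 and 679 CPM in controls. Its followers Psat1 and Psph had log2 fold changes of -0.044 and 0.016. Of the enzymes that draw one-carbon units from serine, cytosolic Shmt1 had 72.2, 71.8 and 66.8 CPM in RBC libraries, against 63.5, 68.9 and 64.7 CPM in controls. Mitochondrial Shmt2 had 229.8, 224.7 and 232.4 CPM in RBC libraries, against 218.7, 236.1 and 215.7 CPM in controls. Both overlapped between groups through control 2 alone. Their log2 fold changes were 0.098 and 0.036 with 6 libraries, and 0.13 and 0.076 without control 2, where neither passed. The mitochondrial folate enzymes Mthfd2 and Mthfd1l had log2 fold changes of 0.055 and 0.037, and 0.092 and 0.018 without control 2; Mthfd2 had 0.011 without control 1.

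Pycr1 had the smallest p of the set. It encodes the mitochondrial enzyme of the last step of proline synthesis, after Aldh18a1. Pycr1 had 21.7, 20.5 and 21.5 CPM in RBC libraries, against 18.5, 17.2 and 17.7 CPM in controls. Every RBC library lay above every control, and control 2 was the lowest by a small margin. The log2 fold change was 0.26 ± 0.070 SE, or 1.19-fold (interval 1.07 to 1.33), with adjusted p = 0.181 in edgeR. It stayed between 0.23 and 0.28 with each library left out, and passed only in voom with library weights, where 4 members (11.8%) were called against 5.81% of all genes (3.23% higher and 2.58% lower). Its adjusted p there was 0.0304 (over the alternatives 0.0304 to 0.624). Aldh18a1, the first step of the same pathway, had 103.4 ± 0.44 CPM in RBC libraries and 99.6 ± 6.17 CPM in controls. Gpt2, a mitochondrial alanine transaminase, had 55.1 ± 0.80 CPM in RBC libraries and 49.7 ± 3.24 CPM in controls, with a log2 fold change of 0.15 (edgeR adjusted p = 0.484) that was 0.095 without control 2.

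Transporters went in both directions, and again none of the 7 passed with 6 libraries. Slc1a4, which carries alanine, serine and cysteine, had 67.8, 62.8 and 69.2 CPM in RBC libraries, against 73.9, 72.4 and 78.4 CPM in controls. Every RBC library lay below every control. The log2 fold change was -0.17 ± 0.063 SE (edgeR adjusted p = 0.406), and without control 2 it was -0.19 ± 0.048 SE and passed (adjusted p = 0.00398, over the alternatives 0.00398 to 0.863). Slc38a2, the SNAT2 carrier of small neutral amino acids that amino acid shortage induces, had 573, 586 and 578 CPM in RBC libraries, against 650, 584 and 640 CPM in controls. Control 2 lay among the RBC libraries, whereas controls 1 and 3 were above them. Its log2 fold change was -0.11 ± 0.059 SE (adjusted p = 0.582), and -0.15 ± 0.030 SE without control 2 (adjusted p = 0.000125, over the alternatives 0.000125 to 0.911).

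The exchanger of large neutral amino acids is built from Slc7a5 and its heavy chain Slc3a2. Slc7a5 had 590, 558 and 556 CPM in RBC libraries, against 540, 476 and 531 CPM in controls, a log2 fold change of 0.14 ± 0.065 SE (edgeR adjusted p = 0.528). Slc3a2 had 304, 306 and 296 CPM in RBC libraries, against 280, 325 and 285 CPM in controls. Control 2 was the lowest library for Slc7a5 and the highest for Slc3a2. Without it the log2 fold changes of the pair were 0.084 and 0.097, and neither passed. The cationic amino acid transporter Slc7a1 had 414, 424 and 418 CPM in RBC libraries, against 413, 302 and 410 CPM in controls. Its log2 fold change of 0.16 was 0.025 without control 2, which held 73.4% of the mean of the other controls. Slc6a9, the glycine transporter GLYT1, had 27.6, 27.0 and 28.8 CPM in RBC libraries, against 26.8, 19.9 and 23.7 CPM in controls, with log2 fold changes of 0.25 ± 0.10 SE (edgeR adjusted p = 0.460) and 0.14 without control 2. Slc1a5, the glutamine carrier ASCT2, had 187.7 ± 6.43 CPM in RBC libraries and 176.9 ± 2.95 CPM in controls, with a log2 fold change of 0.088.

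**Figure D4:**
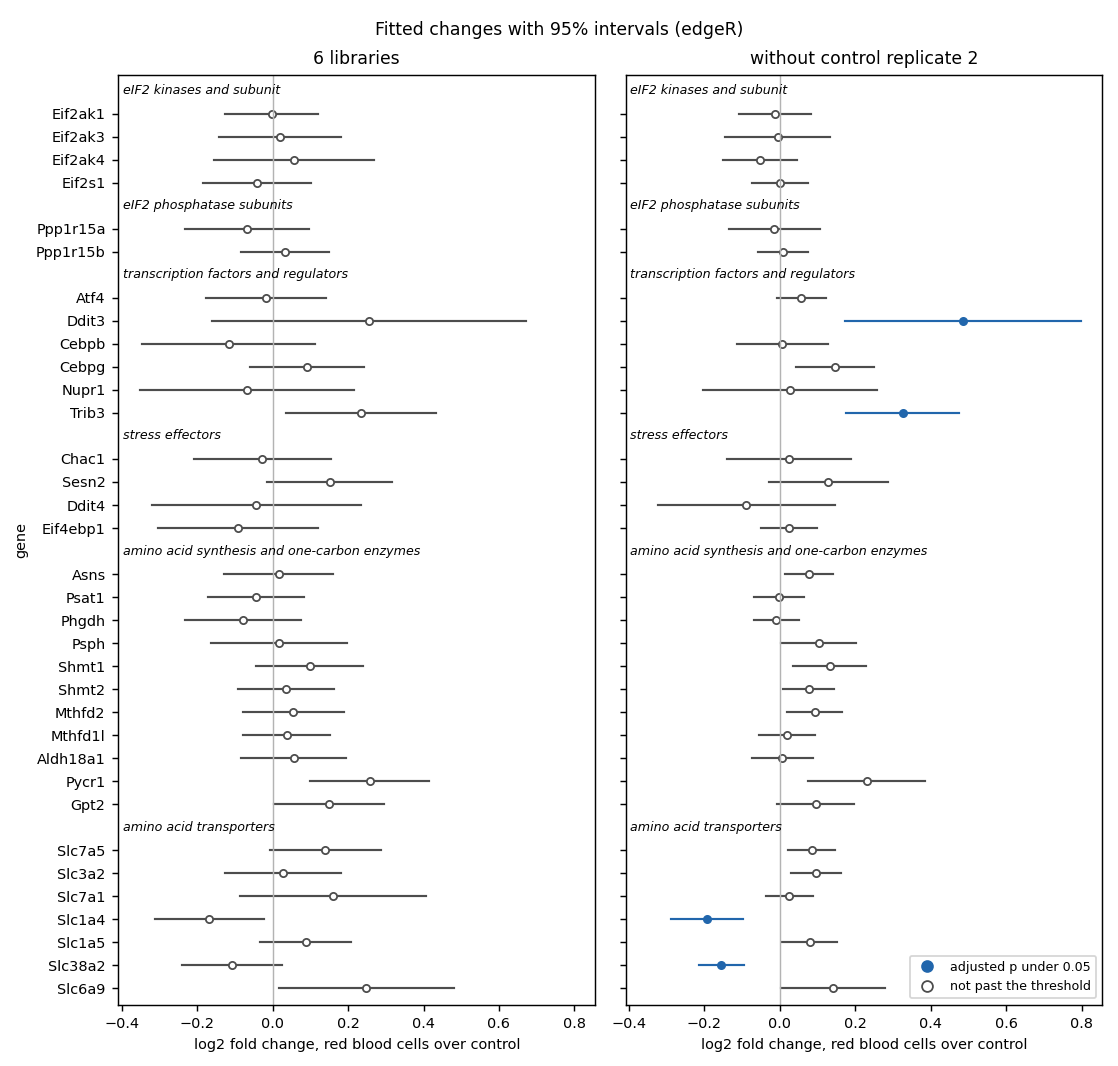
Log2 fold change (red blood cells over control) with its 95% interval for the 34 tested genes, from edgeR with 6 libraries on the left and without control 2 on the right; blue marks an adjusted p under 0.05. None is blue on the left, and on the right Ddit3 and Trib3 are higher and Slc1a4 and Slc38a2 lower.

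Leaving out control 2 gave 4 calls among 34 members (11.8%): 2 higher (Ddit3 and Trib3) and 2 lower (Slc1a4 and Slc38a2). Over the 11297 genes tested in that fit 899 passed (7.96%), 4.19% higher and 3.77% lower. Log2 fold changes were positive in 25 of 34 members (73.5%), against 49.8% of all genes, and an unadjusted p under 0.05 with a positive sign was reached by 13 members (38.2%), against 9.56% of all genes. With a negative sign it was reached by 2 members (5.88%), against 9.8%. The RBC libraries were above controls 1 and 3 in 17 members (50%) and below them in 2 (5.88%), against 17% and 17.2% of all genes. The 17 were 4 of 6 transcription factors and regulators, 7 of 11 enzymes, 5 of 7 transporters and 1 of 4 stress effectors. In the eIF2 kinase group it was 0 of 4 genes, and in the phosphatase subunits 0 of 2. Whether the share in any role group differs from the 17% of all genes was not tested. The kinase and phosphatase groups, with 4 and 2 genes, are too small to tell. The median log2 fold change in that fit was 0.026 over the members, 0.10 over the factors, 0.078 over the enzymes, 0.079 over the transporters and -0.0096 over the kinase group. The set holds many abundant transcripts, and the part of abundance in these shares was not tested.

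Control 2 departed from the other controls along gene length, in the set as in all genes. Of the 14 tested members with a gene model under 2500 bases, 13 were higher in control 2 than in controls 1 and 3, with a median of 114% of their mean. Of the 9 members over 4000 bases, 7 were lower in control 2, with a median of 94.99%. The Spearman rho between length and this ratio was -0.64 over the 34 members and -0.67 over 10936 tested genes, values that come from the same 3 libraries. The long Slc7a1 and Eif2ak4 stood at 73.4% and 78.6% of the other controls, and the short Eif4ebp1 and Atf4 at 125% and 116%.

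**Figure D5:**
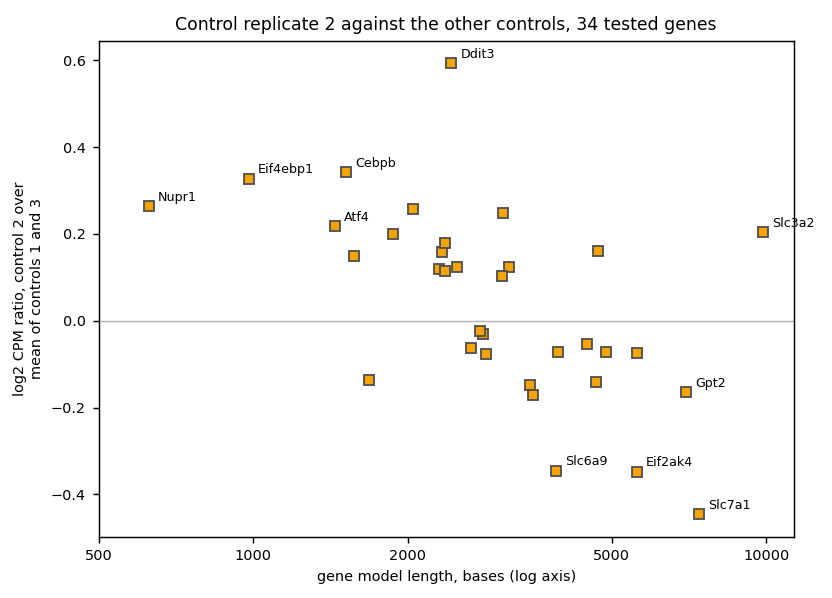
Each square is a tested gene of the set: gene model length in bases (log axis) against the log2 CPM ratio of control 2 to the mean of controls 1 and 3. Short genes such as Nupr1 and Eif4ebp1 lie above 0 and long ones such as Slc7a1 and Gpt2 below it, with Slc3a2, the longest model, above 0.

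Beyond the members, 126 further genes of the pathway in 6 lists were examined: 103 were tested and 0 were called by edgeR with 6 libraries. At an unadjusted p under 0.05, 11 were higher and 3 lower, where 5.42% and 4.58% of all tested genes were. DESeq2 called 1, Slc7a11, where it called 2.11% of all genes. Their median log2 fold change was 0.031. Without control 2, edgeR called 10 of the 103 higher and 4 lower, where 4.19% and 3.77% of all genes were. Among 16 tested ATF4 targets outside the set the cystine importer Slc7a11 had the smallest p. It had 131.9, 140.9 and 139.1 CPM in RBC libraries, against 109.2, 78.3 and 106.0 CPM in controls. The groups did not overlap, with a log2 fold change of 0.49 ± 0.11 SE (edgeR adjusted p = 0.0935), and it was 0.35 without control 2 and passed. The stress factor Atf3 had 4.44, 4.53 and 5.22 CPM in RBC libraries, against 3.13, 3.48 and 2.86 CPM in controls, again without overlap. Its log2 fold change was 0.58 ± 0.14 SE (adjusted p = 0.0991), and 0.66 without control 2, where it passed. In that fit 4 of the 16 targets were called higher, against 4.19% of all genes: Slc7a11, Atf3, the growth arrest gene Gadd45a (0.39, and 0.24 with 6 libraries) and the small GTPase Rab32 (0.15, and 0.12 with 6 libraries). The autophagy gene Map1lc3b was called lower (-0.18, and -0.25 with 6 libraries), against 3.77% of all genes.

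The cytosolic aminoacyl-tRNA synthetases, which charge tRNAs with amino acids, had 15 positive and 5 negative log2 fold changes among 20 tested, where 49.0% of all genes were positive. Aars, for alanine, had 302.6, 295.6 and 290.5 CPM in RBC libraries, against 257.7, 256.7 and 282.1 CPM in controls, and the log2 fold change was 0.16 ± 0.058 SE (edgeR adjusted p = 0.385). Wars, for tryptophan, had 88.6 ± 3.28 CPM in RBC libraries and 78.9 ± 2.05 CPM in controls (adjusted p = 0.346). Aars, Wars, Eprs and Hars were called higher without control 2, by log2 fold changes from 0.10 to 0.15, where 4.19% of all genes were.

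In the remaining 4 lists 0 genes were called with 6 libraries. Of 15 tested partners and regulators of eIF2, the adaptor Nck1 and the GCN2 activator Gcn1 had the smallest p, with log2 fold changes of -0.13 and 0.23, which were -0.086 and 0.055 without control 2. Oma1 and Dele1, which relay mitochondrial stress to the heme-regulated kinase, had 0.13 and 0.050, and none of the 15 was called without control 2 either. Of 9 tested transporters outside the set, Slc43a2 and Slc38a9 had 0.34 and 0.24, and 0.16 and 0.19 without control 2. The taurine transporter Slc6a6 had 1420, 1377 and 1413 CPM in RBC libraries, against 1697, 1205 and 1640 CPM in controls. Control 2 was the lowest library and the other controls the highest; the log2 fold change was -0.11, and without control 2 it was -0.25 and was called lower. Of 25 tested enzymes, the proline-degrading Prodh had 0.51 ± 0.13 SE (edgeR adjusted p = 0.161) and glutamine synthetase Glul 0.18 ± 0.055 SE (adjusted p = 0.270), and these were called higher without control 2. Serine racemase, Srr, had -0.18 and was called lower without control 2 (-0.28). Of 18 tested genes of nutrient sensing, the Rag GTPases Rraga and Rragc had -0.16 and -0.13, and -0.12 and -0.086 without control 2. Nprl3, a subunit of a complex that inhibits mTORC1 when amino acids are short, had -0.19 and was called lower without control 2 (-0.25). In that fit 2 of the 25 enzymes were called higher and 1 lower. Of the 9 transporters 1 was called lower, as was 1 of the 18 nutrient sensing genes. Over all genes 4.19% were called higher and 3.77% lower, and whether these lists differ from that was not tested. Oma1 and Dele1 were named after their values were seen.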

How the data were processed

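The authors deposited raw counts per gene symbol, whole numbers without normalization, and FPKM values of the same 15528 symbols for 6 libraries. The ratio of FPKM to counts was constant per gene after scaling by the library total (largest relative departure 3.40e-08 over 10948 genes), so both tables describe the same reads; gene model length was computed from it. RNA was extracted with TRIzol and sequenced from a stranded mRNA kit, per the labels' protocols. The build is GRCm39, per the submitters' processing notes; for aligner, counter, strand setting and annotation the entry is "not given in the sources used here". Group and replicate were read from the sample titles.

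The test was edgeR 4.0.16 (R 4.3.3) on the counts: filterByExpr (minimum count 10, minimum total 15; 11208 genes with 99.96% of counts), TMM scaling, glmQLFit and glmQLFTest, two-sided, Benjamini-Hochberg over all tested genes, called under 0.05. SE was taken as the absolute log2 fold change over the square root of F. CPM are scaled to the total of listed counts. The pipeline was tested on simulated counts. Alternatives were RLE or no scaling, DESeq2 1.42.0, voom of limma 3.58.1 with and without library weights, other filters, leaving out erythroid genes or each library, a replicate block, and limma on log2(FPKM + 1) or log2(FPKM + 0.1), with and without a filter at a mean of 1 FPKM in either group. An offset that removes the dependence on gene length and transcript GC content in every library (95.9% of tested genes had both) was added after the data were seen. Leaving out a library, the filter was applied anew.

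Members, lists and alternatives were chosen with earlier results of these data known. Every member is accounted for; of the other lists, genes called or with the 2 smallest p were named, and genes called only without control replicate 2 were named after their values were seen. Promoter sequences are RefSeq's for GRCm38.p6, used by symbol; 5 members had no window. The 95% intervals of fold changes come from the edgeR test and take in the spread among libraries. A floor of 3 counts, which corresponds to 0.163 to 0.174 CPM in a library, covers counting error only and was not applied in the tests. No molecular identifiers are mentioned, so reads may be copies.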

Additional observations from a re-analysis of the deposited data

How the results depend on the processing

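No member was called under 17 of 19 alternatives. The exceptions were voom with library weights and the fit without control replicate 2, with 4 members called in each (Pycr1, Trib3, Slc1a4 and Slc38a2 in the first, Ddit3 in place of Pycr1 in the second), so that leaving out a library gave 0 to 4. All genes called numbered 164, but 651 with library weights, 340 with the length and GC offset and 62 to 899 with a library left out. Genes called in the other pathway lists numbered 0, but 1 in DESeq2, 9 with library weights, 3 with the length and GC offset and 0 to 14 with a library left out. The median over members stayed within 0.011 to 0.048. With 3 libraries a group and control 2 apart, the intervals in the report set what could be detected.

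Whether the replicate numbers pair the libraries is not stated in the labels, and correlations between their deviations could not decide it. The groups are small, and the departure of the control that stood apart enters the control deviations. Same-numbered deviations correlated at -0.015, 0.033 and 0.065. The values 0.033 and 0.065 were the highest for their libraries, and -0.015 was not. With the replicate block 126 genes were called, 0 of them members.

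Of the tested members 21 kept their sign under each alternative and 13 did not, each of these with an absolute log2 fold change of at most 0.12; the cause was not tested. With the length and GC offset the other sign was reached by Eif2ak1 (0.014), Eif2ak3 (-0.020), Atf4 (0.042), Nupr1 (0.053), Chac1 (0.025), Ddit4 (0.00098), Eif4ebp1 (0.0058) and Slc3a2 (-0.10), and with library weights by Eif2ak4 (-0.031), Atf4 (0.046), Cebpb (0.0041), Nupr1 (0.057), Chac1 (0.020) and Eif4ebp1 (0.0045). With a library left out the range was -0.022 to 0.018 for Eif2ak1, -0.0088 to 0.061 for Eif2ak3, -0.053 to 0.12 for Eif2ak4, -0.074 to 0.00094 for Eif2s1, -0.058 to 0.057 for Atf4, -0.18 to 0.0070 for Cebpb, -0.17 to 0.027 for Nupr1, -0.068 to 0.025 for Chac1, -0.16 to 0.053 for Ddit4, -0.16 to 0.025 for Eif4ebp1, -0.017 to 0.078 for Asns, -0.047 to 0.10 for Psph and -0.014 to 0.097 for Slc3a2.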
